A study of Rattus norvegicus with 12 samples.

Results

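The mu-class glutathione transferases form a small family of cytosolic enzymes, and 6 genes of it (Gstm1, Gstm2, Gstm3, Gstm4, Gstm5 and Gstm7) were examined here among 18166 named genes measured in rat liver. Each was found by its symbol in the array's platform annotation, in rows that name a single gene. Rows were to be chosen by the highest mean signal over the 12 arrays, which does not look at diet, and every one of these 6 genes had a single row. The family itself was proposed with earlier results of the same arrays known, the fall of Gstm3 among them. The diet values of Gstm3 below, with their p-values from the fit over all genes, are therefore a description of these arrays and no independent support for a change.

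The study fed male obese Zucker rats (fa/fa, Crl:ZUC-Leprfa), 5 to 6 weeks old at the start, for 4 weeks and took their livers on day 29. One group ate a diet with 5% PSC, the labels' abbreviation for a supplement that the series title describes as a biotechnologically produced oyster mushroom. The other ate a control diet without PSC, comparable in energy and crude nutrients. Each feeding group held 12 rats. RNA of 6 rats per diet was hybridised to Affymetrix Rat Gene 2.0 ST arrays, 1 rat per array. All 12 rats carry the fa mutation of the leptin receptor on both chromosomes, and lean rats were not analysed here. Rats were housed 2 to a cage, so cage mates among them would not be fully independent.

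Glutathione transferases join the tripeptide glutathione to reactive, electron-poor molecules, among them drug metabolites, plant compounds and products of lipid oxidation. The conjugates leave the hepatocyte through pumps of the ABCC family and are trimmed to mercapturates. Mu-class subunits pair into dimers with each other, and Gstm1 and Gstm2 encode major subunits of rat liver. The transcription factor NRF2 and the nuclear receptors CAR and PXR are known to raise transcription of several glutathione transferase genes in rodents.

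In RefSeq's annotation of the rat assembly GRCr8 the family lies in a row on chromosome 2, in the order Gstm5, Gstm6l, Gstm7, Gstm6, Gstm3l1, Gstm3, Gstm2, Gstm1 and Gstm4. Some names in this cluster are shared between genes. RefSeq lists Gstm3 as a synonym of both Gstm5 and Gstm7. For the gene called Gstm3 (gene number 57298, transcript cluster 17750426) it lists the synonyms Gstm3l, Gstm3l1, Gstm4 and GstYb4. The name Gstm3l1 thus stands both for a separate gene of the cluster and for a synonym of Gstm3. All values below follow the gene numbers of the platform annotation.

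The stretches before 3 of the genes are shown because these genes behaved differently on the arrays. Gstm3 fell, and Gstm1 varied most closely with it among rats of the same diet. Gstm7 varied the other way, largely through PSC replicate 4 (Pearson r with Gstm3 -0.60, and -0.31 without that array). Each stretch is the 250 bases before the start that RefSeq's promoter table uses (GRCr8, all on the minus strand and written 5′ to 3′ along the gene). They lie at chr2:198300668-198300917 for Gstm3, chr2:198343384-198343633 for Gstm1 and chr2:198260320-198260569 for Gstm7. Capitals mark matches to 6 motifs searched on both strands.
Gstm3: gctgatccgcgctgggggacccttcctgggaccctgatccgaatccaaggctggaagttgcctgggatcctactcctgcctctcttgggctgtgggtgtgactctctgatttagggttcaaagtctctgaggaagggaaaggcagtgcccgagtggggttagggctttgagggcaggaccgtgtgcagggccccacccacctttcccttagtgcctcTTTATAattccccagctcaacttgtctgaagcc
Gstm1: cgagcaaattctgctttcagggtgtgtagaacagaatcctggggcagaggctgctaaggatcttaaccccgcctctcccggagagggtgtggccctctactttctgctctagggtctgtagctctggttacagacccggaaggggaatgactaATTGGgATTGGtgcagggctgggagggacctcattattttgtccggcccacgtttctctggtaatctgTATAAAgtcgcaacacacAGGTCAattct
Gstm7: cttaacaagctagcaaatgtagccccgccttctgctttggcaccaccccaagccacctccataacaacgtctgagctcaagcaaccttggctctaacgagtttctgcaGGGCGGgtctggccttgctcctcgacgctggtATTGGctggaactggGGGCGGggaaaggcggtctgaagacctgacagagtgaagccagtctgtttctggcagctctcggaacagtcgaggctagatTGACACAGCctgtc

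The motifs were the antioxidant response element core bound by NRF2 (TGACNNNGC, in 10.1% of 33469 rat promoter windows of this length), the AhR core (TNGCGTG, 4.09%), the nuclear receptor half-site (AGGTCA, 14.1%), the TATA box (TATAAA, 12.9%), the CCAAT box (CCAAT, 34.0%) and the GC box (GGGCGG, 30.5%). In the Gstm3 window the search found 1 match, TATAAA on the reverse strand, 33 to 28 bases before the start. The Gstm1 window held a forward TATAAA at 29 to 24 bases, a half-site and a pair of reverse CCAAT letters. The Gstm7 window held GC boxes, a reverse CCAAT and the letters of the antioxidant response element core at 14 to 6 bases before the start. Of the windows not printed, Gstm5 held 2 matches to the antioxidant core, of which the nearer one overlapped a GC box. Gstm2 and Gstm4 held no match to it. These are matches of letters in a short window and say nothing about the binding of a factor.

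Gstm3 was lower on every PSC array than on any control array. Its log2 signal had a lowest, median and highest value of 7.74, 8.32 and 9.15 in PSC-fed rats, against 9.24, 10.06 and 10.26 in controls. The diets therefore did not overlap, although PSC replicate 4, the highest of its group, came within 0.09 of control replicate 2, the lowest control. Means were 8.36 ± 0.46 in PSC-fed rats and 9.92 ± 0.37 in controls (log2 signal, SD, n = 6 each). The log2 fold change was -1.56 (SE 0.20, limma adjusted p = 0.0041), which is 2.95-fold lower with PSC (95% interval 2.19 to 3.98). This was the fifth-largest fall of all genes tested, and an exact two-sided permutation test of the 12 arrays gave p = 0.00216, the smallest that 924 assignments can give.

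**Figure D1:**
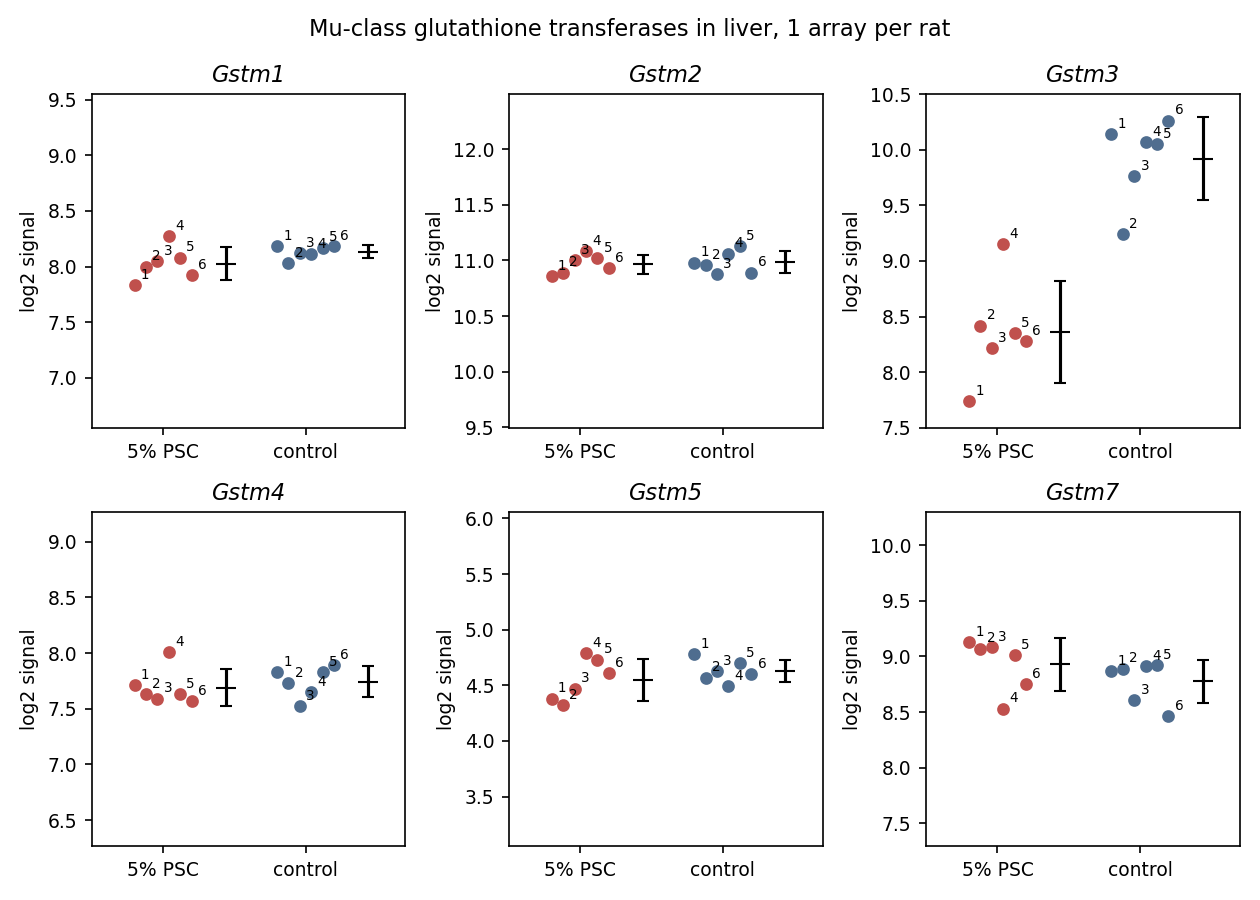
Log2 signal of the 6 mu-class genes on each array (points, numbered by replicate), PSC-fed rats left of controls, with mean and SD as black bars (n = 6 per diet); every panel spans 3 log2 units. The diets separate for Gstm3, with PSC arrays at 7.74 to 9.15 and control arrays at 9.24 to 10.26, and overlap in the other panels.

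Of the 6 family members, 1 was lower and 0 were higher at an adjusted p below 0.05, where 1.89% of all 18166 genes were lower and 0.716% higher. The split between lower and higher calls over all genes moved with scaling: 72.5% of calls were lower as deposited and 87.7% after subtracting array medians. Nothing is read from the members' count, since the fall of Gstm3 was known when the family was proposed. All PSC arrays lay below every control array for 1 of 6 members, and for 1.48% of all genes. By the exact permutation test, too, Gstm3 was the 1 member with an unadjusted p below 0.05, a mark that 19.1% of all genes passed in limma.

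Gstm1 and Gstm2, the major mu-class subunits of rat liver, did not pass the test. Gstm1 (cluster 17750450) had lowest, median and highest log2 signals of 7.83, 8.03 and 8.27 in PSC-fed rats, against 8.03, 8.15 and 8.18 in controls. The PSC arrays spread on both sides of the narrow control range, with PSC replicates 1, 2 and 6 below it and PSC replicate 4 above it. Its log2 fold change was -0.11 (SE 0.07, limma adjusted p = 0.427), and the 95% interval reached from -0.26 to 0.04.

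Gstm2 (cluster 17750435) had the smallest diet difference of the 6. It ran from 10.86 to 11.08 with a median of 10.97 in PSC-fed rats, and from 10.88 to 11.13 with a median of 10.97 in controls. The ranges nearly coincided. The log2 fold change was -0.02 (SE 0.06, adjusted p = 0.884), with an interval of -0.15 to 0.11, so that a fall of more than 1.11-fold lies outside it.

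Gstm7 (cluster 17750404) was the 1 member with a positive value. Its log2 signals had a lowest, median and highest of 8.53, 9.04 and 9.13 with PSC, and of 8.46, 8.88 and 8.92 in control livers. PSC replicates 1, 2, 3 and 5 lay above every control, PSC replicates 4 and 6 within the control range. The log2 fold change of 0.15 (SE 0.11, interval -0.09 to 0.39) did not pass, with a limma adjusted p of 0.481. It was 0.23 without PSC replicate 4 (adjusted p = 0.206) and 0.09 without control replicate 6 (adjusted p = 0.708).

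Gstm4 and Gstm5 gave small negative values. Gstm4 (cluster 17750465) ran from 7.57 to 8.01 in PSC-fed rats and from 7.52 to 7.89 in controls, and the diets differed by -0.05 (SE 0.08, adjusted p = 0.772). Its highest array was PSC replicate 4, which stood 0.30 above the next PSC array. Without that array the difference was -0.12, and over the 12 fits without 1 array it ran from there to -0.02 (without control replicate 6). Gstm5 (cluster 17741844), whose mouse counterpart is known from brain and testis, gave a dim signal close to the array medians of 4.71 to 4.85. It ran from 4.32 to 4.79 with PSC and from 4.49 to 4.78 in controls, and its log2 fold change was -0.08 (SE 0.08, adjusted p = 0.645). RMA compresses changes of dim genes, which limits what can be read from Gstm5.

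A further pair of mu-class genes lies in the cluster and is measured, Gstm6 and Gstm6l, and both were dim. Gstm6 ran from 3.71 to 4.34 in PSC-fed rats and from 3.76 to 4.67 in controls, and the diets differed by -0.24 (SE 0.15, adjusted p = 0.399). Gstm6l had -0.01 (SE 0.11). The separate gene Gstm3l1, which lies between Gstm6 and Gstm3, was not analysed here. Mu-class transcripts are alike in sequence and probe sequences were not used, so it was not tested whether probes of one gene also read another.

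The fall of Gstm3 was larger than the change of any other member. For each of the 15 pairs of members, the log2 difference between the genes was taken on each array and compared between diets by an exact two-sided permutation test, with Benjamini-Hochberg adjustment over the pairs. Intervals given for the pairs are 95% t intervals with pooled variance and do not come from the permutation test. All 5 pairs with Gstm3 passed, in the same contrast in which its fall was already known. Gstm3 minus Gstm2, its direct neighbour, was -2.60 ± 0.39 in PSC-fed rats and -1.06 ± 0.37 in controls (log2, SD, n = 6 each), a shift of -1.54 (interval -2.03 to -1.05, exact p = 0.00216, adjusted p = 0.0081).

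Against Gstm1, Gstm4 and Gstm5 the shift of Gstm3 was -1.45, -1.51 and -1.48, each with an exact adjusted p of 0.0081. Against Gstm7 it was -1.71 (interval -2.45 to -0.98, exact p = 0.00433, adjusted p = 0.013). Of the 10 pairs without Gstm3, 0 passed, and 0 had an unadjusted exact p below 0.05 (lowest 0.149). Of these pairs, the shift was -0.26 for Gstm1 minus Gstm7 (interval -0.64 to 0.12). PSC replicate 4 decided part of this count: without it 8 pairs passed, the added ones being Gstm7 against Gstm1 (-0.39), Gstm2 (-0.28) and Gstm4 (-0.35). In these 3 pairs Gstm7 was the gene that stood higher with PSC relative to its partner.

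Along the chromosome, Gstm3 lies between Gstm6 and Gstm2 among the measured genes, and neither neighbour passed. Of the 10 measured genes that flank the cluster, 5 on each side, 0 had a limma adjusted p below 0.05 (lowest 0.104). An unadjusted p below 0.05 was found for 5 of the 10, and for 19.1% of all genes. That share of all genes also stands beside each such count in the lists below. Of the flanking genes, Gpr61 had the lowest p, with 0.25 (SE 0.08). Others past the unadjusted mark were Csf1, which encodes the macrophage growth factor M-CSF, with -0.26 (SE 0.09), and Prok1, the prokineticin gene, with 0.27 (SE 0.10).

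**Figure D2:**
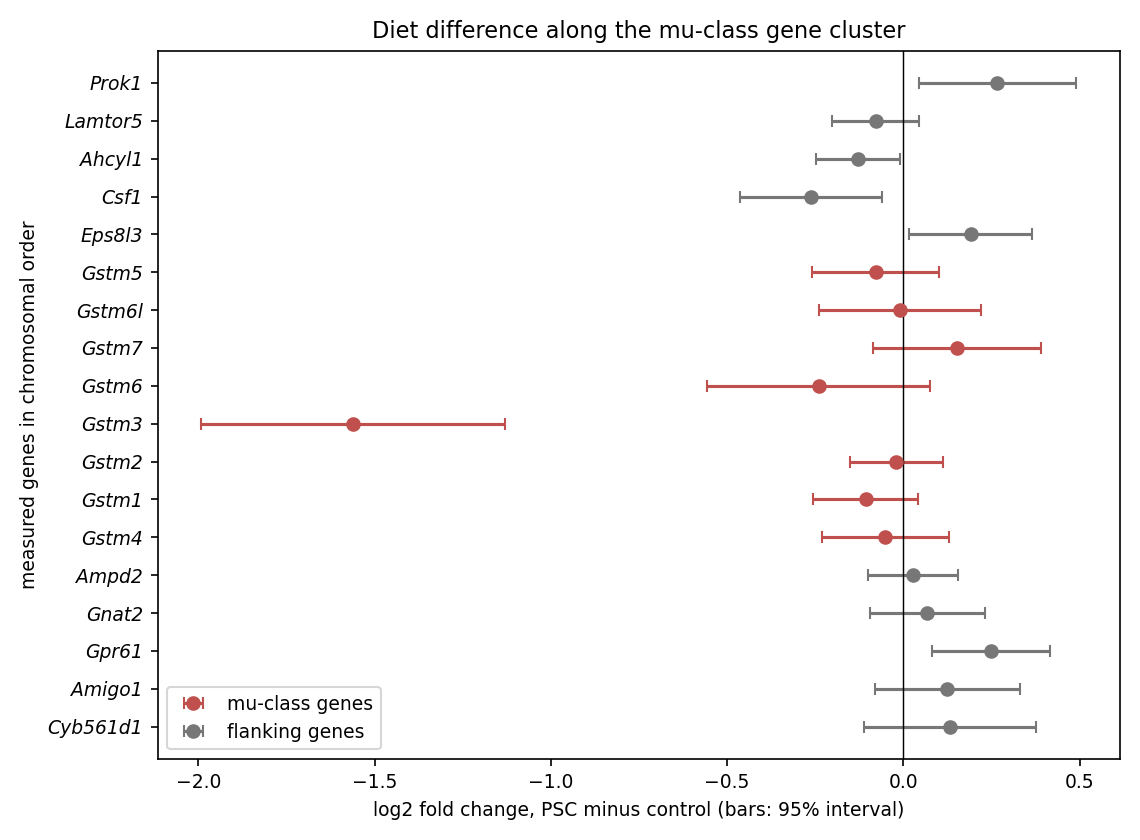
Log2 fold change, PSC minus control, with its 95% interval from limma (n = 6 per diet), for the 8 measured mu-class genes (red) and 5 flanking genes on each side (grey), in chromosomal order. Gstm3 stands at -1.56 while its measured neighbours Gstm6 and Gstm2 stand at -0.24 and -0.02.

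The family differed in how much it varied among rats of the same diet. Within diets the pooled SD of Gstm3 was 0.416 on the log2 scale, larger than that of 99.0% of all genes. Gstm2 had a pooled SD of 0.091, larger than that of 14.2% of genes, and Gstm1 had 0.114. Gstm7, at 0.217, was more variable than 84.9% of genes.

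After the diet means were removed, Gstm3 and Gstm1 went up and down together over the 12 arrays (Pearson r = 0.88, Spearman rho = 0.70). PSC replicate 4 was the highest PSC array for both, and PSC replicate 1 and control replicate 2 were the lowest of their diets for both. Without PSC replicate 4 the correlation was 0.77. These values describe 12 arrays that share one platform and one normalization, and no test was attached to them.

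Among the 10 pairs that leave Gstm7 out, r ran from 0.37 to 0.88, and from 0.08 to 0.77 without PSC replicate 4. Gstm7 went the other way in 4 of its 5 pairs, with -0.60 against Gstm3 and -0.53 against Gstm1. Against Gstm2 its r was 0.07. Without PSC replicate 4 the values were -0.31 against Gstm3, -0.22 against Gstm5 and -0.11 against Gstm1. They were 0.11 against Gstm4 and 0.51 against Gstm2, so that the opposite course of Gstm7 rested largely on that array.

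**Figure D3:**
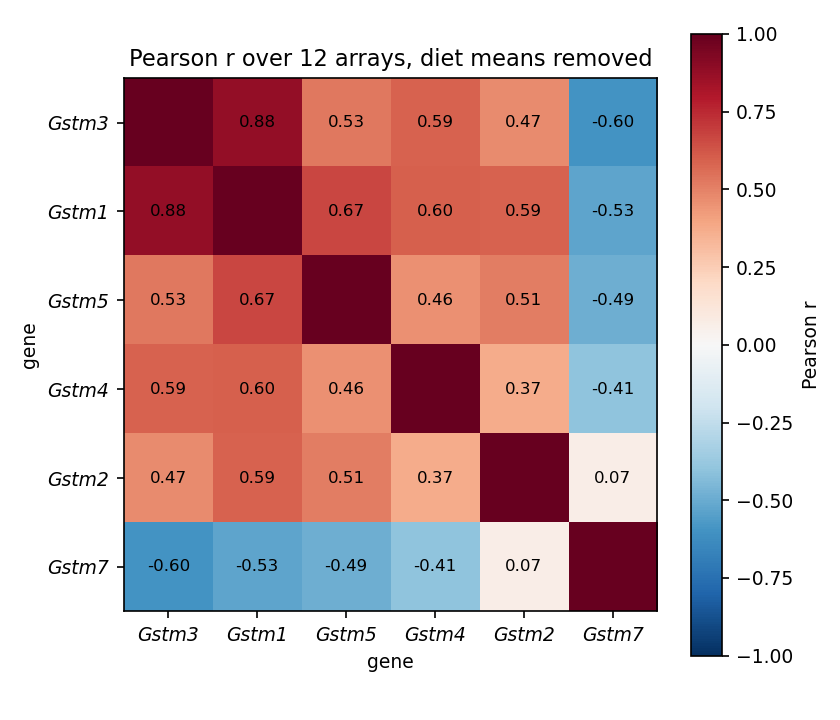
Pearson r between mu-class genes over the 12 arrays after removal of each gene's diet means; red is positive and blue negative. Gstm3 and Gstm1 have the highest value (0.88), and Gstm7 is negative against every member but Gstm2 (0.07).

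**Figure D4:**
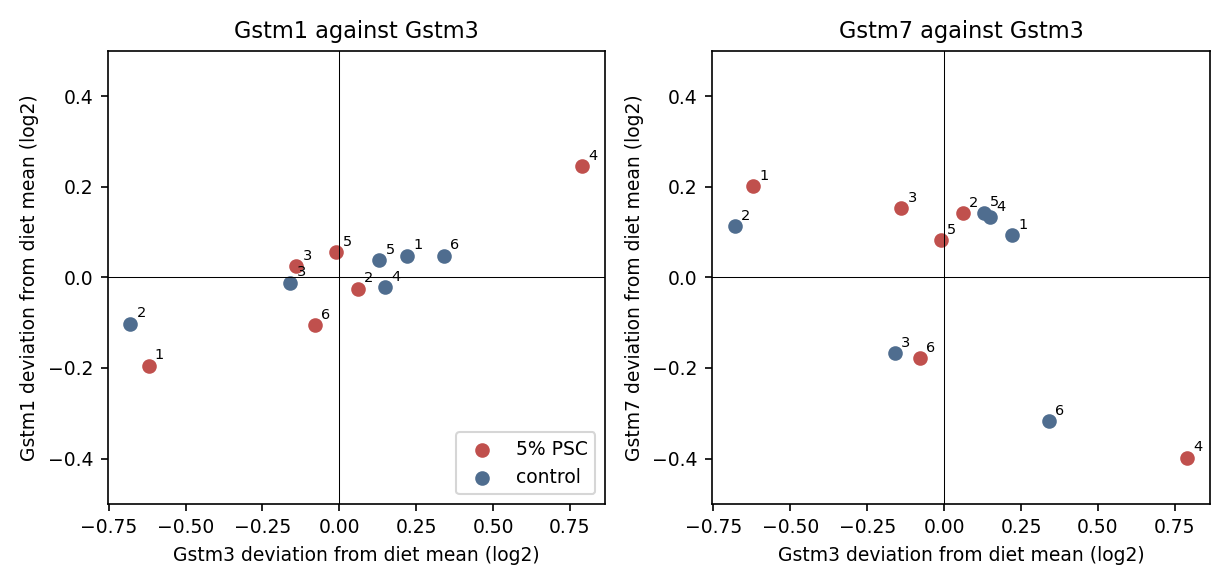
Deviation of each array from its diet mean (log2 signal, points numbered by replicate) for Gstm1 and Gstm7 on the vertical axes against Gstm3 on the horizontal axis, PSC-fed rats in red and controls in blue. PSC replicate 4 lies at the far right of both panels, highest for Gstm1 and lowest for Gstm7.

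PSC replicate 4 was also the PSC array nearest to the controls on the first principal component of all genes. It scored -1.57 there, where the other PSC arrays ran from 6.68 to 16.56 and the controls from -18.73 to -4.34. With diet means removed, Gstm3 followed this component at r = -0.70. Gstm4 and Gstm1 had -0.69 and -0.67, Gstm5 and Gstm2 had -0.34 and -0.23, and Gstm7 had 0.49. The value of Gstm3 was -0.47 without PSC replicate 4. Without that array the log2 fold change of Gstm3 was -1.72, and over all 12 ways of leaving out an array it ran from -1.72 to -1.44 with a limma adjusted p of at most 0.0153.

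The genes most like Gstm3 within diets were Ncoa6, a coactivator of nuclear receptors (r = 0.95, rho = 0.86), Tmem214 (0.93 and 0.90), the cold-inducible RNA-binding protein gene Rbm3 (0.91 and 0.86), Shoc2, a scaffold of RAS signalling (0.90 and 0.78), and Slc35e2b (0.90 and 0.90). They are the highest of 18060 genes searched over 12 arrays. Without the arrays farthest from their diet mean for Gstm3, PSC replicate 4 and control replicate 2, r was 0.87 for Ncoa6 and 0.65 to 0.76 for the others. None of the 5 passed the diet test, 2 had an unadjusted p below 0.05, and their log2 fold changes lay between -0.23 (Shoc2, limma adjusted p = 0.0677) and -0.05 (Ncoa6).

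No gene of the other glutathione transferase classes passed as lower. Of 16 measured genes of the alpha, pi, theta, omega, kappa, sigma and microsomal types, 1 rose, 0 fell and 15 did not pass. An unadjusted p below 0.05 (limma) was found for 5 of the 16, all with positive values, beside 19.1% of all genes. The riser was the pi-class gene Gstp3, at 8.48 ± 0.29 in PSC-fed rats and 7.54 ± 0.25 in controls, which differ by 0.93 on the log2 scale (SE 0.14, limma adjusted p = 0.0041). Gsta5 and Gsta2, alpha-class genes, had 0.50 (adjusted p = 0.149) and 0.32, and the microsomal Mgst2 had 0.16. The median of this list was 0.06 and that of the 6 mu-class genes -0.065, beside 0.0133 for all genes.

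Genes that supply and use glutathione moved in both directions. Of 18 measured genes of its synthesis, recycling and peroxidases, 2 rose and 2 fell (limma, adjusted over all genes), with a median of -0.10. Cbs, the entry enzyme of transsulfuration that leads to cysteine, rose by 0.42 (SE 0.08), and Gpx1, the main cytosolic glutathione peroxidase, by 0.29 (SE 0.07). Gpx3, the secreted peroxidase, had -0.49 (SE 0.10) and the glutaredoxin gene Glrx -0.25 (SE 0.06). Downstream, in conjugate export and the mercapturate pathway, 1 of 15 measured genes rose and 0 fell, with 3 at an unadjusted p below 0.05 and a median of 0.04. It was Kyat1, a cysteine conjugate beta-lyase, with 0.37 (SE 0.08, adjusted p = 0.0277). The export pump gene Abcc3, also a target of NRF2, had -0.75 (SE 0.29, adjusted p = 0.178), and Acy3, an aminoacylase acting on mercapturates, had 0.17.

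Targets of NRF2 did not pass as single genes: 0 of 27 measured members had a limma adjusted p below 0.05, 3 had an unadjusted p below 0.05, and the median was -0.02. Cbr1, a carbonyl reductase, had -0.46 (adjusted p = 0.0622), Abcc3 had the -0.75 given above, and Gsr, glutathione reductase, had -0.14. Targets of the aryl hydrocarbon receptor also gave 0 of 6, with 3 at an unadjusted p below 0.05. Of these, Nfe2l2, which encodes NRF2 itself, had -0.25 (SE 0.07, adjusted p = 0.0802), Aldh3a1 had 0.18 and the receptor's repressor Ahrr 0.22.

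Targets of CAR and PXR changed in both directions. Of 19 measured members 2 rose and 4 fell (limma), and the median was -0.19. An unadjusted p below 0.05 was found for 12, beside 19.1% of all genes. Abcb1b, a drug efflux pump gene, had -1.94 (SE 0.35), Cyp2c55, a cytochrome P450, -2.49 (SE 0.47), the carboxylesterase gene Ces2c -0.99 (SE 0.19), and Cyp3a18 -1.12 (SE 0.27). The conjugating enzyme genes Sult2a1 and Ugt2b1 rose, by 2.32 (SE 0.31) and 0.88 (SE 0.18). Earlier results for several of these genes were known when the list was drawn up.

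Among 16 regulators of such genes, 3 rose and 0 fell, with a median of -0.01. They were Rxra, the shared partner of CAR, PXR and PPAR alpha, by 0.32 (SE 0.06), Ppara by 0.41 (SE 0.09) and Cebpa, a hepatocyte transcription factor, by 0.30 (SE 0.07). Nfe2l2, also in this list, had the -0.25 given above (limma adjusted p = 0.0802). Nr1i2, which encodes PXR, had 0.17 (adjusted p = 0.202).

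**Figure D5:**
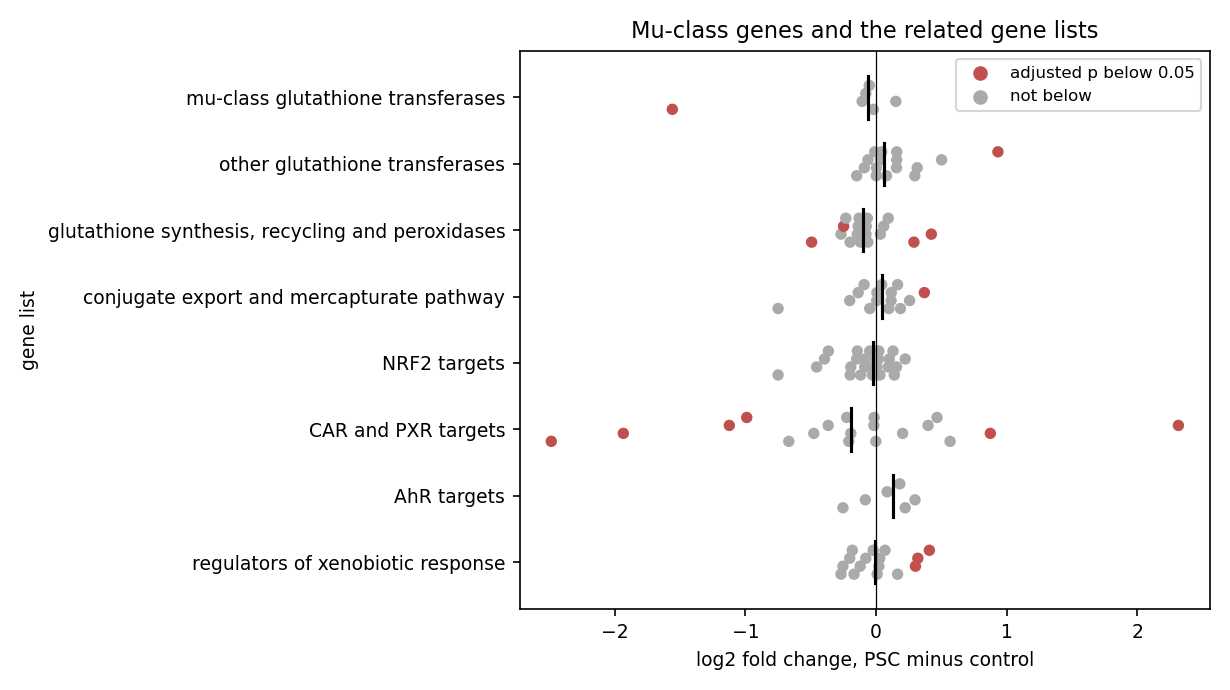
Log2 fold change, PSC minus control, of each measured gene (points) in the mu class and in 7 related lists; red points passed limma's adjusted p below 0.05, and black bars are list medians. Gstm3, at -1.56, stands apart from the other 5 mu-class genes, which lie between -0.11 and 0.15.

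Hepatocyte markers were bright on both diets: 8 measured ones averaged 11.98 to 12.13 on PSC arrays and 11.93 to 12.08 on control arrays (mean log2 signal), and 0 of them passed the diet test or had an unadjusted p below 0.05. Of markers of hepatocytes near the central vein 0 of 12 passed, and of those near the portal tract 0 of 14, with 3 and 6 at an unadjusted p below 0.05 (limma). In whole liver, fewer cells of a type and less RNA per cell cannot be told apart.

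Markers of other cells moved with diet beside Gstm3. Of 11 stellate cell and fibroblast markers, 5 fell (Dcn, Col1a2, Tagln, Rgs5 and Col3a1) and 0 rose. An unadjusted p below 0.05 (19.1% of all genes in either direction) was found for 8 of these markers, all with negative values. Their mean log2 signal ran from 6.43 to 6.82 on PSC arrays and from 6.83 to 7.09 on control arrays, and their summed linear signal from 1462 to 2036 with PSC and from 1914 to 2305 in controls. PSC replicate 4 was the highest PSC array here as well. With diet means removed, the list followed Gstm3 at r = 0.84, and at 0.70 without PSC replicate 4. The NRF2 target list followed at 0.78 and 0.68, and the conjugate export and mercapturate list at 0.73 and 0.59. For CAR and PXR targets the values were 0.65 and 0.43, and for glutathione synthesis, recycling and peroxidases 0.55 and 0.26. The AhR target list had 0.38 and 0.71. Such values were not particular to Gstm3. Gstm1, which did not pass the diet test, followed the stellate list at r = 0.80 over all arrays. It followed NRF2 targets at 0.84, CAR and PXR targets at 0.755 and the glutathione synthesis list at 0.61, each above Gstm3. For conjugate export and AhR targets Gstm1 had 0.69 and 0.29, below Gstm3. With the stellate list Gstm2, Gstm4 and Gstm5 had 0.50, 0.60 and 0.63, and Gstm7 had -0.52. Levels of 17 kinds were set beside Gstm3 in this way, and several followed it weakly or inversely. The other glutathione transferases had r = -0.03, the regulators 0.25 and fat cell markers 0.44. Hepatocyte markers had -0.37, those near the central vein -0.15 and those near the portal tract -0.14. Bile duct and progenitor cell markers had -0.34 and sinusoidal endothelial markers -0.375.

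Of 12 macrophage markers 1 rose over all genes, Cd163. An unadjusted p below 0.05 (19.1% of all genes in either direction) was found for 8 of these markers, all with positive values. Their mean ran from 7.15 to 7.50 with PSC and from 6.38 to 7.27 in controls, and followed Gstm3 at r = -0.38. Of 11 lymphocyte markers 1 rose, Nkg7, and 8 had an unadjusted p below 0.05, again all with positive values. Their mean ran from 5.03 to 5.19 with PSC and from 4.79 to 4.99 in controls, and followed Gstm3 at r = 0.20. Of the other marker lists, 1 of 9 was lower for bile duct and progenitor cells (Spp1), 1 of 7 was lower for fat cells (Fabp4) and 0 of 6 passed for sinusoidal endothelium, with 4, 3 and 2 at an unadjusted p below 0.05 (limma). In the bile duct list these went both ways, with Krt19 at 0.27 and Cldn7 at 0.23, beside Epcam at -0.23 and Spp1 at -0.63. In the fat cell list Cfd had 0.33 and Lep 0.17, beside -1.5 for Fabp4. The medians of these lists were 0.06 for bile duct and 0.04 for fat cells. The part of any of these lists in the fall of Gstm3 was not tested.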

How the data were processed

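Liver RNA of 12 rats was measured on 12 arrays. The table the authors deposited holds a log2 signal for each transcript cluster and array. Per the submitters' processing notes, RMA and Affymetrix Expression Console were used. Versions, filters and detection calls were not given in the sources used here. RMA quantile normalizes arrays and summarises probes by median polish.

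Of 30347 clusters, 18511 have 1 gene symbol in the platform annotation, 575 several and 11261 none. A gene's brightest cluster over the 12 arrays was tested, leaving 18166 genes. Groups came from the sample titles. Diets were compared with limma 3.58.1 (R 4.3.3) in a two-sided test, p-values adjusted by Benjamini-Hochberg over every gene, and a threshold of 0.05. Pairs of members and single members were also compared by exact permutation. The limma fit was also run on simulated data with independent noise for each gene and array. Such data hold no array effects or shared cages. Which rats shared a cage was not known here, and the number of arrays limits precision.

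The members and lists were chosen with earlier results of these data known. Named are all members, the 2 to 4 list genes with the smallest p and any other list gene past the threshold. Nr1i2 and the 5 genes most like a called member are named as well. Flanking genes, changed markers and Gstm6 and Gstm6l were named after their values were seen. Alternatives were all clusters, a dim-gene filter, quantile, median and cyclic loess scaling, a trended prior, array weights, a replicate block, cluster means, a threshold of 0.1, permutation, and leaving out arrays. Promoter windows are from RefSeq (GRCr8), found for 6 of 6 members. Some genes are not reported here.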

Additional observations from a re-analysis of the deposited data

Results flagged for a closer look

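Gstm4 on PSC replicate 4, at a log2 signal of 8.01, lay far from the other PSC arrays: its gap of 0.30 to the next was 0.682 of the group's range, above Dixon's critical value of 0.625 for 6 arrays. It was 1 of 12 groups checked, and chance flags about 1 group in 20.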

How the results depend on the processing

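The fall of Gstm3 kept its direction and its adjusted p below 0.05 in every fit run: its log2 fold change ran from -1.61 to -1.54 over the alternatives in processing (adjusted p 0.00161 to 0.0211) and from -1.72 to -1.44 over the 12 fits without 1 array. Gstm1, Gstm4, Gstm5 and Gstm7 kept their direction and did not pass in any. Without 1 array their log2 fold changes ran from -0.16 (PSC replicate 4) to -0.07 (PSC replicate 1), from -0.12 (PSC replicate 4) to -0.02 (control replicate 6), from -0.13 (PSC replicate 4) to -0.03 (PSC replicate 2) and from 0.09 (control replicate 6) to 0.23 (PSC replicate 4), in that order of genes. Gstm2 changed sign without PSC replicate 1 (0.0007) or control replicate 5 (0.0093), within a range of -0.0433 to 0.0093. Gstm5 was too dim for the filter on dim genes and has no value there. Pairs with unequal change numbered 5 to 8 without 1 array. Pairs that passed in no fit and changed sign in some were Gstm4 minus Gstm5 (-0.018 to 0.075), Gstm1 minus Gstm5 (-0.069 to 0.005) and Gstm2 minus Gstm4 (-0.017 to 0.072).

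The background over all genes, 343 lower and 130 higher, moved more; the cause was not tested. Lower and higher genes numbered 198 and 56 over every transcript cluster, 584 and 82 with array medians subtracted, 738 and 402 at a threshold of 0.1, and 166 and 59 without PSC replicates 2 and 5 (an alternative chosen after seeing the data, as was cyclic loess). With the filter on dim genes 609 were lower. Without 1 array, lower genes ran from 113 to 543 and higher genes from 29 to 192. The sum of 473 moved over 1.5 times without control replicates 1 (142), 3 (252), 4 (164), 5 (298) or 6 (188) and without PSC replicates 1 (206), 4 (735), 5 (199) or 6 (160).

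Replicate numbers are shared by the titles of both diets, but the labels do not say that rats were paired. Deviations of same-numbered arrays correlated above 0.1 in 1 of 6 pairs, and 2 of 12 arrays correlated best with their own number. With 6 pairs this check cannot exclude a pairing. With a replicate block 78 genes were lower and 16 higher, and Gstm3 kept its call (adjusted p = 0.0129).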
